A study of Mus musculus with 38 samples.

Results

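Transcripts of Myb and of small families of chromatin proteins, the high mobility group box (HMGB) proteins and the heterochromatin protein 1 (HP1) proteins, were compared across 5 mouse leukaemias driven by MLL fusions and normal bone marrow. The members were every probe set (the group of oligonucleotides that reports 1 transcript on the array) annotated to 1 gene symbol alone out of Myb, Hmgb1, Hmgb2, Hmgb3, Hmga1, Cbx1, Cbx3 and Cbx5. This gave 18 of the 45101 probe sets, for 6 of the 8 symbols: 3 for Myb, 3 for Hmgb2, 1 for Hmgb3, 5 for Cbx1, 1 for Cbx3 and 5 for Cbx5. All 5 probe sets that name Hmgb1 name another gene too, none names Hmga1 alone or with others, and 4 more that name Cbx3 carry several symbols. Hmgb1 and Hmga1 therefore have no value here. Myb, Hmgb3 and Cbx5 had been picked by the study as maintenance genes with the help of these samples, and their levels here cannot be taken as separate evidence for them.

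RNA from cryopreserved whole bone marrow of 38 mice was hybridised to 1 Affymetrix array per mouse. For the leukaemias, marrow progenitors carrying the c-kit receptor were infected with a retrovirus holding an MLL fusion and put into lethally irradiated syngeneic C57BL/6 hosts, male or female, and marrow was taken when the sick mice were killed. The fusion partner was AF1p in 9 mice, AF10 in 8, GAS7 in 5, AF9 in 5 and ENL in 7, and each mouse is named by its cohort and number. The controls were 4 samples of normal marrow from wild type C57BL/6 mice of either sex, with no virus or transplant named in their labels, so fusion, infection, irradiation and transplant cannot be told apart. The labels give no age, no sex per mouse and no vector promoter, and any host cells that survived irradiation stayed in the sample.

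Myb is a DNA-binding transcription factor that keeps blood progenitors immature and dividing, and it falls as cells mature. HMGB proteins bend DNA through a pair of HMG boxes and loosen its contacts with nucleosomes; Hmgb2 is abundant in dividing cells, and Hmgb3, on the X chromosome, is known for its expression in primitive blood cells. HP1 proteins read methylated lysine 9 of histone H3 through a chromodomain and recruit silencing partners through a chromoshadow domain; Cbx5 encodes HP1 alpha, Cbx1 HP1 beta and Cbx3 HP1 gamma.

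The stretch of 250 bases before each RefSeq transcription start (GRCm38.p6) was searched on both strands for CCAAT, the core of the box bound by NF-Y, and for TTTGGCG, a core of E2F sites. CCAAT was present in 33.8% of 32817 such promoters, and at least 3 copies in 2.79%. Hmgb2 had 4 copies, beginning at -243, -198, -73 and -11 from the start, Hmgb3 had 3 at -94, -51 and -5, and 1 of the 2 listed Hmgb1 starts had 3 at -86, -42 and -11, all on the strand of the gene. The other Hmgb1 start (chr5:149051617-149051866) had 0. Of 2 listed Cbx5 starts 1 had a single copy, on the other strand, and Myb, Cbx1, Cbx3 and Hmga1 had none. TTTGGCG occurred in 1.26% of promoters, among them those of Myb and of 1 Cbx3 start. The promoters of the 3 HMGB genes and of Myb are shown for these repeated copies and, for Myb, the E2F core; for Hmgb1 this is the start that holds them. The capitals mark CCAAT, or for Myb TTTGGCG, and a match of letters is a description and not a binding site. The regions are chr8:57511593-57511842 on the plus strand for Hmgb2, chrX:71555667-71555916 on the plus strand for Hmgb3, chr5:149053058-149053307 on the minus strand for Hmgb1 and chr10:21160985-21161234 on the minus strand for Myb.
Hmgb2: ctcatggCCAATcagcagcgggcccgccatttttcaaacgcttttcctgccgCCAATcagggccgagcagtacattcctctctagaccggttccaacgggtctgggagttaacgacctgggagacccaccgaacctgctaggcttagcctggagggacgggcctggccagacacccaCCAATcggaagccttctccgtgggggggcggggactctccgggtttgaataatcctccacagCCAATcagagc
Hmgb3: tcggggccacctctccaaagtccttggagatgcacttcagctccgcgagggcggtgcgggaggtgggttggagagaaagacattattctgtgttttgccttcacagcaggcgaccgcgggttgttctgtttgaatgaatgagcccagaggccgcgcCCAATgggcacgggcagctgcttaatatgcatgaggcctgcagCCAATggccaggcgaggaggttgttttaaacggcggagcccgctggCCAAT
Hmgb1: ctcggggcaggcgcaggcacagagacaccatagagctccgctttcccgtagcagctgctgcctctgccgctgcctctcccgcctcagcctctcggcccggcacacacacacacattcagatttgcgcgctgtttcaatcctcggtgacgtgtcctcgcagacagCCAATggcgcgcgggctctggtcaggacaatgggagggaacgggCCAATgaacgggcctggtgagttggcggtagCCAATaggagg
Myb: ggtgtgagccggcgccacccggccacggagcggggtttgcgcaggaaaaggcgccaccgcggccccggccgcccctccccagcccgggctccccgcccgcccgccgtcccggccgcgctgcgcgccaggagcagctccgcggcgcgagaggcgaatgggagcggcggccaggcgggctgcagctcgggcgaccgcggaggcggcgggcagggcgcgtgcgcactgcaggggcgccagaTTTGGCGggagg

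Levels are given as log2(intensity + 46.1) after all arrays were brought to a common median, and 1 unit is a 2-fold difference. To be tested, a probe set had to exceed the array median on 4 or more arrays, which 16 of the 18 members passed. The brightest tested probe set stood for its gene. Groups were compared with limma, with p-values adjusted by Benjamini-Hochberg over all 13333 genes, and a gene was called at an adjusted p under 0.05. With the 5 cohort means averaged and set against normal marrow, 41.9% of all genes were called (29.1% higher and 12.8% lower), and the median gene was higher by 0.16. Of the 6 measured members 3 were called, Myb and Hmgb2 higher and Hmgb3 lower, a share close to that background. For Hmgb2 this holds on its brightest probe set alone, and its other probe sets were called lower (-0.48 and -0.55). Among the 5 cohorts, 8.09% of all genes were called by an F test and 2 of the 6 members were, Myb and Hmgb3.

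Markers of other cell types differed between the groups. All 10 measured erythroid and all 9 B cell markers were lower in the leukaemias. The filter admits markers bright in the normal samples alone, so these counts depend on it. With the filter at 10 arrays, which such a marker cannot pass, 5 erythroid and 5 B cell markers were called lower. The summed erythroid intensity was 767 to 2080 in the leukaemias and 107458 to 154341 in normal marrow. Beside 29.1% of all genes higher and 12.8% lower, 7 of 10 myeloid markers were higher and 1 was lower. Of 8 markers of late neutrophils 6 were lower and 0 higher (median -2.35). Their summed intensity overlapped, at 15247 to 328157 in the leukaemias and 163733 to 275335 in normal marrow. Of 6 megakaryocyte markers 5 were lower, and of 7 T and NK cell markers 6 were. With the filter at 10 arrays 2 T and NK cell markers were called lower. Without normal 1 or without normal 2 the T and NK count was 3. A marker bright only in normal marrow then fails the filter and is not tested. Of this list Cd3d and Cd2 were tested in 34 of the 38 fits that left out 1 array. Fewer cells of a type and less RNA per cell cannot be told apart in such samples. The ratio of actin signal at the 3' and 5' ends, a sign of RNA integrity, was 0.07 to 0.22 (log2) in normal samples and 0.15 to 0.65 in leukaemias. The leukaemias lay in 2 sets of arrays that 16 probe sets told apart, with 16 mice in one and 18 in the other. Those 16 were picked because they split the leukaemias alike, out of the 400 whose levels fell most clearly into 2 groups. Each leukaemia is therefore on 1 side for all 16 by that choice, which says nothing of how clean the sets are. The normal samples took no part in finding the split and were nearer the second set. Their share of those probe sets on the side of the first was 0.0625, 0.125, 0.25 and, in normal 2, 0.4375. They were counted with the second set, and the labels name no batch. Separately, 5 arrays had bright hybridisation controls (spiked RNA added before hybridisation): MLL-AF1p_803, MLL-AF10_798A, MLL-GAS7_407, MLL-GAS7_410 and normal 3.

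Myb was higher in leukaemic than in normal marrow, with the MLL-GAS7 mice divided. The 4 normal samples read 12.61, 12.77, 12.87 and 12.90. The MLL-ENL mice ran from 14.04 to 14.28 with a median of 14.11, the narrowest spread of any cohort (SD 0.09, n = 7). MLL-AF9 mice read 13.66, 14.12, 14.21, 14.22 and 14.25. All mice of both cohorts lay above all normal samples.

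The MLL-AF10 mice ran from 13.52 to 14.16 (median 13.82), and the MLL-AF1p mice from 13.30 to 14.16 (median 13.72). In MLL-GAS7 the 5 mice read 12.64, 12.73, 12.87, 13.66 and 14.06. MLL-GAS7_410, MLL-GAS7_407 and MLL-GAS7_408 thus lay within the normal range, and MLL-GAS7_405 and MLL-GAS7_406 above it. Over all cohorts 31 of 34 leukaemias exceeded every normal sample on 1421317_x_at, the probe set read here. On 1422734_a_at 31 did, and 2 MLL-GAS7 mice lay below every normal sample. On 1450194_a_at 30 did, and 1 MLL-AF1p and 1 MLL-GAS7 mouse lay below every normal sample.

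**Figure D1:**
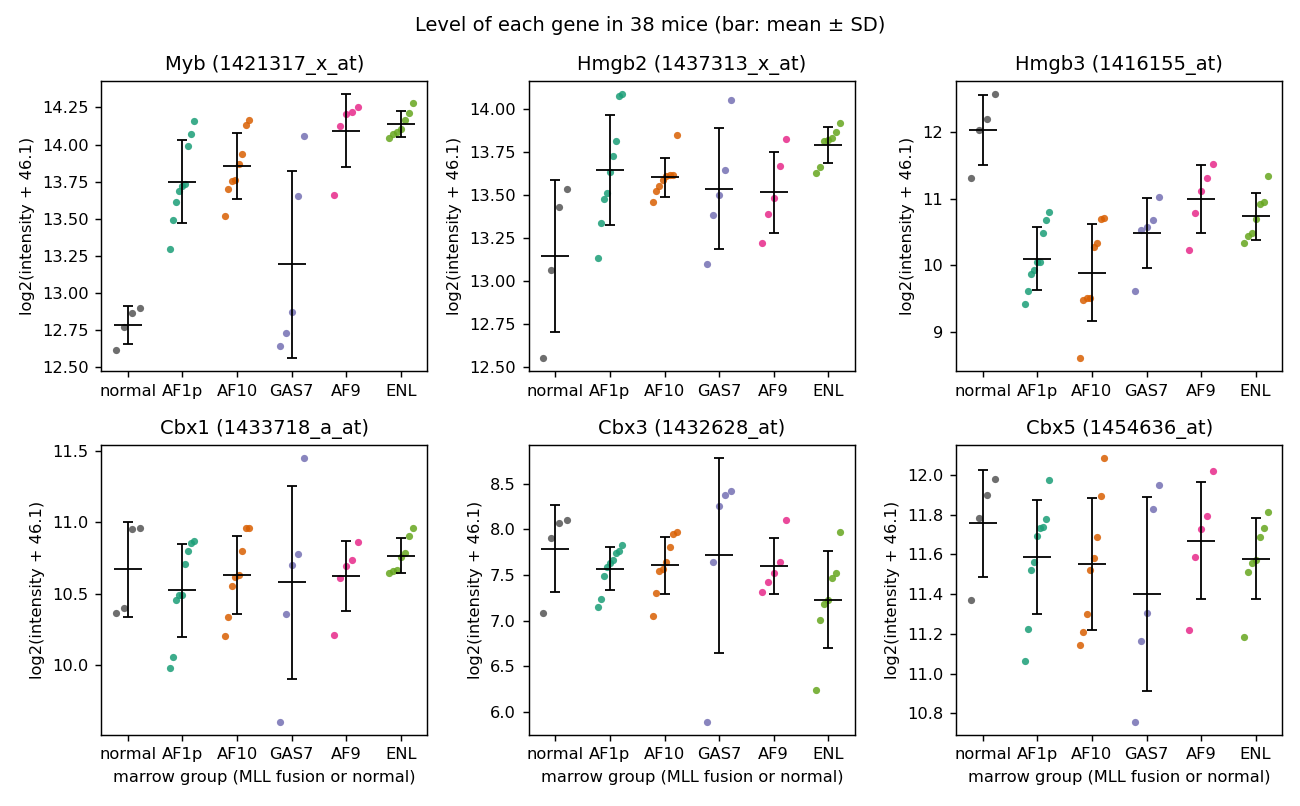
Level of the representative probe set of each measured gene, as log2(intensity + 46.1), in normal marrow (n = 4) and the MLL-AF1p (9), MLL-AF10 (8), MLL-GAS7 (5), MLL-AF9 (5) and MLL-ENL (7) cohorts. Points are mice and bars are mean ± SD; Myb lies above the normal samples in all leukaemias but 3 MLL-GAS7 mice, and Hmgb3 lies below them in 31 of 34.

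The mean of the cohorts exceeded normal by 1.02 ± 0.16 (SE), or 2.03-fold, with a limma adjusted p of 3.13e-06. Against the same 4 normal samples the cohort differences were 0.96 for MLL-AF1p (1.95-fold), 1.07 for MLL-AF10 (2.10-fold), 1.31 for MLL-AF9 (2.47-fold) and 1.35 for MLL-ENL (2.55-fold), all called. For MLL-GAS7 the difference was 0.41 (95% interval -0.01 to 0.82, limma adjusted p = 0.144), which was called with limma array weights (0.54, adjusted p = 0.0181). These 5 comparisons share their controls. Genes called against normal made up 36.5%, 36.5%, 27.1%, 33.6% and 41.4% of all genes for MLL-AF1p, MLL-AF10, MLL-GAS7, MLL-AF9 and MLL-ENL.

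All 3 Myb probe sets gave the same direction. 1421317_x_at, which stood for the gene, rose by 1.02, 1422734_a_at by 1.15 ± 0.22 and 1450194_a_at by 1.01 ± 0.23, and across the 34 leukaemias they correlated with Pearson's r between 0.90 and 0.95; probe sets on 1 array share its RNA.

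**Figure D2:**
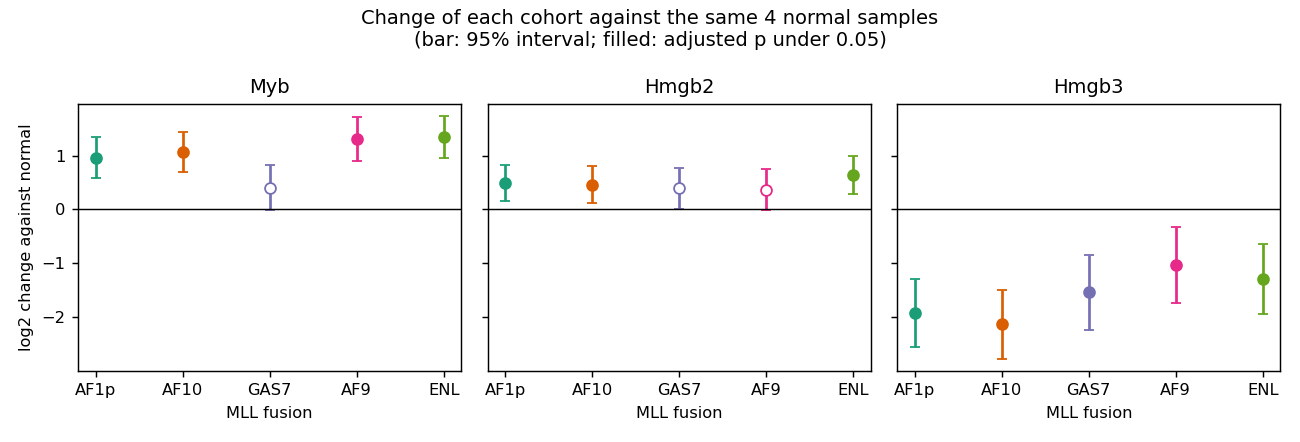
Change of Myb, Hmgb2 and Hmgb3 in each cohort against the same 4 normal samples, in log2 units with 95% intervals; filled points passed an adjusted p under 0.05. Myb in MLL-GAS7 (0.41) is the lowest of its row, and Hmgb3 is below 0 in all 5 cohorts.

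The order of the cohort means for Myb was MLL-ENL (14.14), MLL-AF9 (14.09), MLL-AF10 (13.85), MLL-AF1p (13.75) and MLL-GAS7 (13.19). Over all 13333 genes and 10 pairs of cohorts 2.48% of tests were called. For Myb 3 of the 10 pairs were, all with MLL-GAS7 lower: by 0.95 ± 0.18 against MLL-ENL (limma adjusted p = 0.0009), by 0.90 ± 0.19 against MLL-AF9 (adjusted p = 0.0106) and by 0.66 ± 0.17 against MLL-AF10 (adjusted p = 0.0365). The shares of all genes called in these pairs were 8.63%, 0.915% and 1.85%. MLL-GAS7 was lower than MLL-AF1p by 0.56 (95% interval 0.21 to 0.90) with a limma adjusted p of 0.0532. Thus no cohorts next to each other in this order were called apart. MLL-GAS7_407 and MLL-GAS7_410, both low in Myb, were also among the 5 arrays with bright hybridisation controls. Without those 5 the F test among cohorts gave an adjusted p of 0.0888 in place of 0.00373, no pair was called, and MLL-GAS7 exceeded normal by 0.69 (limma adjusted p = 0.0145). Without MLL-GAS7_410 alone 1 pair was called.

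Myb acts with coactivators and, through its relatives, with the DREAM/MuvB complex that times cell cycle genes. Of 11 measured genes of this family and its partners 2 were higher and 2 lower in the leukaemias, beside 29.1% and 12.8% of all genes, with a median of -0.04 beside 0.16. After quantile normalization 4 were lower, with the actin covariate 1 was, and on the values as deposited 1 was higher. Cebpb, a myeloid transcription factor that binds beside Myb at granulocyte genes, rose 2.39-fold, and Lin37, a MuvB subunit, rose 1.29-fold, a call lost without normal 4 (limma adjusted p = 0.102). Mybl2, the relative that drives G2 and M phase genes, changed by -0.58, and the MuvB subunit Lin54 by -0.62 (1.54-fold lower), both called. The call of Lin54 was lost with the mean of its kept probe sets (-0.24, limma adjusted p = 0.145) and with the actin covariate (-0.31, limma adjusted p = 0.158). The coactivators Crebbp (-0.04) and Ep300 (-0.08) and the MLL partner menin (Men1, 0.05) were not called.

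Of 13 measured genes known as Myb targets 7 were higher and none was lower, with a median of 0.60, where 29.1% of all genes were higher and 12.8% lower. Beside Lmo2, Elane and Erg these were the progenitor surface protein Cd34 (4.03-fold ± 0.47 SE on the log2 scale, adjusted p = 0.000719), the repressor Gfi1 (3.19-fold), the granule protease Prtn3 (2.30-fold) and Myc (2.13-fold), each called by limma. Kit (0.20), Mpo (0.08), Gata2 (-0.34) and Sox4 (-0.82) were not called against normal. Among cohorts 7 of the 13 were called by the F test, where 8.09% of all genes were, and these included Mpo (limma adjusted p = 0.0283) and Gata2 (adjusted p = 0.0149). The list includes myeloid granule genes, and 7 of 10 myeloid markers were higher and 6 of 8 late neutrophil markers lower in the same samples; their part in this count was not tested.

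**Figure D3:**
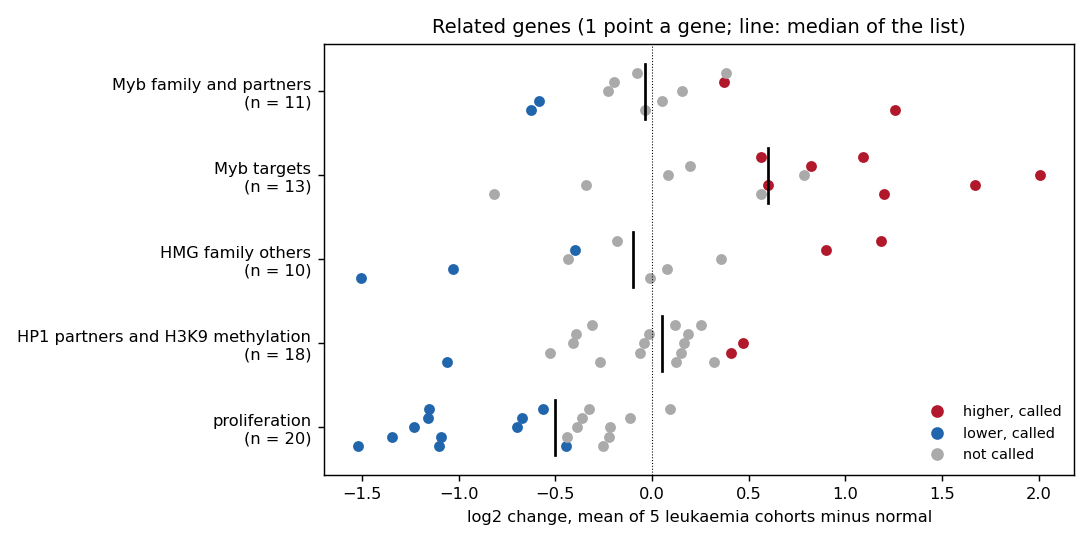
Change in the averaged cohorts against normal marrow for measured genes related to the members, in log2 units, with 1 point a gene and a line at each list's median. Myb targets have a median of 0.60 with 7 of 13 called higher, and proliferation genes a median of -0.50 with 11 of 20 called lower.

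The genes whose levels across the 34 leukaemias were most like Myb's were Ctsg, a primary granule protease (r = 0.865), Slc25a37, a mitochondrial iron carrier (r = 0.858), and Ap3s1, an adaptor subunit of vesicle transport (r = 0.837). They were picked as the highest of all genes and carry no test. Ctsg had a mean of 12.95 in normal marrow and 12.96 in MLL-GAS7, against 14.26 to 14.75 in the other cohorts.

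Hmgb3 was lower in leukaemic marrow in every cohort. Normal samples read 11.31, 12.03, 12.20 and 12.56. The MLL-AF10 mice ran from 8.62 to 10.72 (median 9.90), and the MLL-AF1p mice from 9.42 to 10.81 (median 10.06). All mice of both cohorts lay below all normal samples.

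MLL-GAS7 mice read 9.61, 10.53, 10.57, 10.69 and 11.03, again all below normal. The MLL-ENL mice ran from 10.33 to 11.34 (median 10.69), and those of MLL-AF9 read 10.23, 10.79, 11.12, 11.31 and 11.52. MLL-AF9_301, MLL-AF9-308 and MLL-ENL_774 did not lie below normal 3, the lowest normal sample. Thus 31 of 34 leukaemias were below every normal sample and all 34 were below the normal median.

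The mean of the cohorts was lower by a log2 change of -1.58 ± 0.27 (SE), or 2.99-fold (limma adjusted p = 1.22e-05). By cohort the change was -2.13 in MLL-AF10 (4.38-fold lower), -1.92 in MLL-AF1p (3.79-fold), -1.54 in MLL-GAS7 (2.91-fold), -1.29 in MLL-ENL (2.44-fold) and -1.03 in MLL-AF9 (2.04-fold), all called by limma. The smallest of these, in MLL-AF9, had an adjusted p of 0.0195, which became 0.0659 without MLL-AF9-305 and 0.0842 without normal 1, and with the actin ratio as a covariate the change was -0.72 (adjusted p = 0.0938). Normal 3 was 1 of the 5 arrays with bright hybridisation controls, and in their absence the change was -1.76.

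Hmgb3 also differed among cohorts by the F test (adjusted p = 0.0358), though no pair was called; the widest gap, MLL-AF10 minus MLL-AF9, was -1.10 ± 0.29 (limma adjusted p = 0.0709). This call rested on single mice. It was lost when any of 10 mice was left out, 4 of MLL-AF10 (MLL-AF10_805A, MLL-AF10_797A, MLL-AF10_799A and MLL-AF10_798A), 3 of MLL-AF9 (MLL-AF9-308, MLL-AF9_301 and MLL-AF9-310) and 3 of MLL-ENL (MLL-ENL_760, MLL-ENL_741 and MLL-ENL_774), with adjusted p up to 0.0752. Within the second array set alone it was 0.555. In that set the MLL-AF9 mean was 10.67 (n = 2) and the MLL-AF10 mean 9.89 (n = 5), while in the first they were 11.21 (n = 3) and 9.91 (n = 3).

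Normal marrow also had more transcript of proliferation genes. Of 20 measured, 11 were lower in the leukaemias and none higher, where 12.8% of all genes were lower; with the actin ratio as a covariate 7 were. Among the 11 were Ube2c (2.87-fold lower), Nusap1 (2.54-fold), Rrm2 (2.34-fold) and Ccna2 (2.24-fold). The summed deposited intensity of the measured list was 46789 to 94250 in the leukaemias and 119018 to 156198 in normal marrow, with no overlap. The brightest genes weigh most in such a sum, and the summed erythroid, B cell and megakaryocyte markers did not overlap either. The part of these genes, and of the lower erythroid and B cell markers, in the Hmgb3 difference was not tested. The genes most like Hmgb3 across the 34 leukaemias were Ppp2r3c, a phosphatase regulatory subunit (r = 0.814), Srek1ip1, a splicing regulatory protein (r = 0.786), and Hmgn5, a nucleosome-binding protein also on the X chromosome (r = 0.779).

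Hmgb2 had no single direction, because its probe sets disagreed. The brightest, 1437313_x_at, read 12.55, 13.07, 13.43 and 13.54 in normal marrow and 13.10 to 14.08 (median 13.62) in the leukaemias. On this probe set 22 of 34 leukaemias, including all 7 of MLL-ENL, exceeded every normal sample. The change was 0.47 ± 0.15 (1.39-fold higher, limma adjusted p = 0.00899), called in MLL-ENL (0.64), MLL-AF1p (0.50) and MLL-AF10 (0.45) and not in MLL-GAS7 (0.39) or MLL-AF9 (0.37).

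Probe set 1452534_a_at, as bright, read 13.77, 13.93, 13.96 and 13.97 in normal marrow and 12.78 to 13.87 (median 13.49) in the leukaemias. Here 31 of 34 leukaemias were below every normal sample, and the change was -0.48 ± 0.14 (limma adjusted p = 0.00672). The dimmer 1438307_at read 8.60, 8.68, 9.03 and 9.19 in normal marrow and 7.82 to 8.99 (median 8.39) in the leukaemias. It was below every normal sample in 27 of 34, with a change of -0.55 ± 0.14 (adjusted p = 0.00145).

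**Figure D4:**
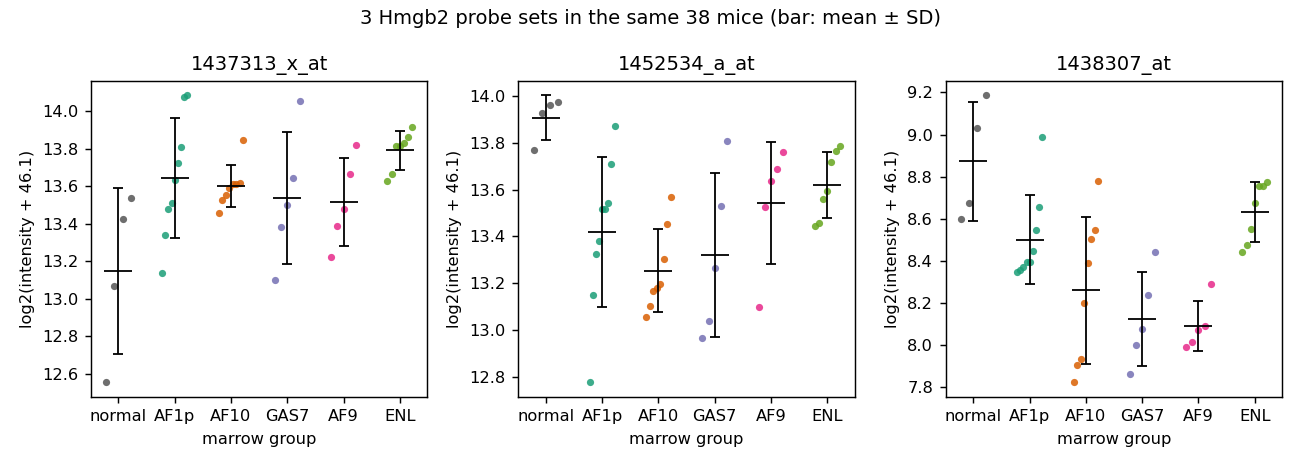
Levels of 3 Hmgb2 probe sets in the same 38 mice, as log2(intensity + 46.1), with points for mice and bars for mean ± SD. Each cohort mean lies above the normal mean of 13.15 on 1437313_x_at and below the normal means of 13.91 and 8.87 on 1452534_a_at and 1438307_at.

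Across the 34 leukaemias the opposed pair 1437313_x_at and 1452534_a_at still moved together (Pearson's r = 0.731, 0.638 without the 2 mice farthest from the median, 0.767 and 0.567 within the array sets; Spearman's rho = 0.703; permutation p adjusted over 18 probe set pairs 3.6e-05 for r and 4.5e-05 for rho). The suffix _x_at marks probes that may also bind other transcripts. Without probe sets ending in _s_at or _x_at, Hmgb2 was lower by -0.48 (limma adjusted p = 0.00541). The call of higher Hmgb2 did not survive quantile normalization (0.21, limma adjusted p = 0.143), nor a fit with the actin ratio as a covariate (0.34, adjusted p = 0.0892), nor leaving out normal 1, the lowest normal sample (0.27, adjusted p = 0.169). Among cohorts 1438307_at differed by the F test (adjusted p = 0.0345 over all probe sets, where 6.28% were called), with means from 8.09 in MLL-AF9 to 8.63 in MLL-ENL, and the other probe sets were not called (adjusted p = 0.657 and 0.284).

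The genes most like the 1437313_x_at probe set across the leukaemias were Hnrnpa2b1, a splicing protein (r = 0.839), Atp5pb, an ATP synthase subunit (r = 0.836), and Sf3b2, a U2 splicing factor (r = 0.826). Of 10 measured genes of other HMG families and of the histone chaperone FACT 2 were higher and 3 lower, beside 29.1% and 12.8% of all genes. Their median was -0.10. Hmgxb4 rose 2.28-fold and Tox4 1.86-fold. Hmgn3 was 2.84-fold lower and Hmgn1 2.04-fold lower, both nucleosome-binding proteins, and Supt16, a subunit of the histone chaperone FACT, was 1.32-fold lower. Without normal 1 only 1 of the 10 was lower, and Hmgn1 changed by -0.77 (limma adjusted p = 0.0931). None of 3 receptors of secreted Hmgb1 was called against normal (Ager -0.40, Tlr2 -0.14, Tlr4 -0.13). Among cohorts Tlr2 (limma adjusted p = 0.000261) and Tlr4 (adjusted p = 0.0222) were called by the F test, where 8.09% of all genes were.

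No HP1 gene was called against normal or among the cohorts on the probe set that stood for it, while single other probe sets were. Cbx5 (1454636_at) read 11.37, 11.78, 11.90 and 11.98 in normal marrow and 10.76 to 12.09 (median 11.58) in the leukaemias, so the groups overlapped. The change was -0.20 (95% interval -0.54 to 0.14, limma adjusted p = 0.366), and the F test among cohorts gave 0.851. After quantile normalization it was -0.39 with an adjusted p of 0.0233. The 3 other tested Cbx5 probe sets changed by 0.07, -0.04 and -0.08, none called. Of these 1421934_at was lower in MLL-GAS7 than in MLL-ENL by -0.66 ± 0.20 (limma adjusted p = 0.0385, where 6.08% of probe sets were called), with overlapping groups. The remaining one, 1421932_at, failed the filter at 6.03 to 7.69 over all arrays.

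Cbx1 (1433718_a_at) read 10.36, 10.40, 10.95 and 10.96 in normal marrow and 9.61 to 11.45 (median 10.68) in the leukaemias. Its change was -0.05 (95% interval -0.42 to 0.33, limma adjusted p = 0.869). On 1422935_x_at the change was -0.40 (adjusted p = 0.0486 over probe sets), with 26 of 34 leukaemias below every normal sample, but leaving out single mice ended this call in 27 of 38 cases, normal and leukaemic arrays included. By cohort it was called in MLL-AF10 (-0.66 ± 0.18, limma adjusted p = 0.00555, where 32.7% of probe sets were called), whose 8 mice read 8.32 to 8.84, all below the normal samples at 8.92 to 9.39. Another Cbx1 probe set, 1431773_at, was lower in MLL-AF1p than in MLL-ENL (-0.81 ± 0.23, limma adjusted p = 0.0427, where 2.82% were called), with overlapping groups. The other tested Cbx1 probe sets changed against normal by -0.03 and -0.26, neither called, and 1450797_a_at failed the filter.

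Cbx3 rested on 1 dim probe set, 1432628_at, which read 7.08, 7.91, 8.07 and 8.10 in normal marrow and 5.89 to 8.42 (median 7.58) in the leukaemias. Its change was -0.25 with a wide 95% interval of -0.78 to 0.29 (limma adjusted p = 0.482). MLL-GAS7_407, with bright hybridisation controls, was the lowest of all 38 for Cbx1, Cbx3 and Cbx5.

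**Figure D5:**
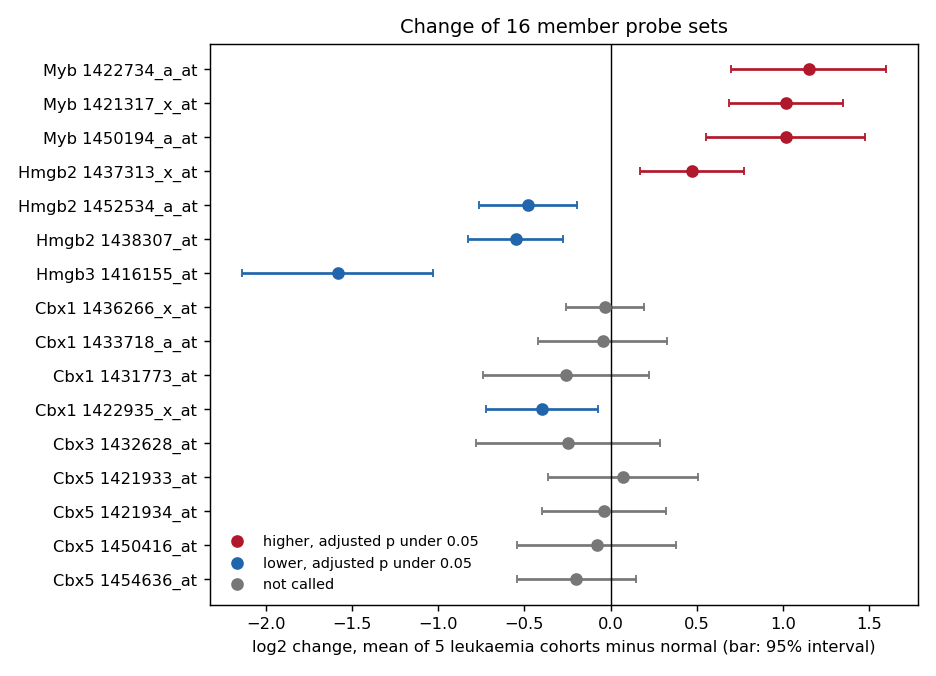
Change of the 16 tested probe sets in the averaged cohorts against normal marrow, in log2 units with 95% intervals. The 3 Myb probe sets are near 1, Hmgb3 is at -1.58, the 3 Hmgb2 probe sets fall on both sides of 0, and all HP1 intervals but that of 1422935_x_at include 0.

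Counted over probe sets, 8 of the 16 tested were called, 4 higher and 4 lower, where 36.9% of all 29004 probe sets were called (24.9% higher and 12.1% lower). Of 18 measured HP1 partners and enzymes of lysine 9 methylation 2 were higher and 1 lower, beside 29.1% and 12.8% of all genes, with a median of 0.05. The counts depended on the scaling: 1 was higher and 6 lower after quantile normalization, and 1 higher and 4 lower on the values as deposited. With the actin covariate 5 were higher and 1 lower. Ehmt1, a lysine 9 methyltransferase, rose 1.38-fold, and Sgo1, which guards cohesion at the centromere and belongs to mitosis, was 2.08-fold lower. Trim28, the corepressor that recruits HP1, rose 1.33-fold (limma adjusted p = 0.0469), a call lost when any of 22 single mice was left out. Setdb1 (0.17), Suv39h2 (-0.53) and Dnmt1 (0.15) were not called.

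Among the 6 members, Pearson correlations over the 34 leukaemias were computed for 15 pairs. Cbx1 and Cbx5 had the highest (r = 0.684, permutation p adjusted over the pairs 0.0003; rho = 0.501, adjusted p = 0.0451). It was 0.593 without the 2 mice farthest from the Cbx1 median, 0.722 with cohort means removed and 0.730 and 0.619 within the array sets. Myb with Cbx1 (r = 0.487), Myb with Cbx5 (0.452) and Hmgb2 with Cbx1 (0.462) were also called, each with an adjusted p of 0.0267 for r and 0.0945 for rho. The Myb pairs rested on a few mice, since r was 0.275 and 0.194 without the 2 farthest. With cohort means removed r was 0.564 and 0.444 for these pairs, and 6 of the 15 pairs were called by permutation. The share of other gene pairs called on the same arrays was not computed. These counts therefore do not show that correlation is particular to the members. Hmgb2 with Cbx1 had r = 0.753 in the first array set and 0.106 in the second. With cohort means kept, no pair was called on the values as deposited, after quantile normalization, within the second array set or without the 5 arrays of bright hybridisation controls. Without MLL-GAS7_407 alone 1 pair was called, and without MLL-AF1p_803 alone 2 were.

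The genes most like Cbx5 were Hdac6, a deacetylase (r = 0.865), Ankrd54 (r = 0.847) and Ddx39a, an RNA helicase (r = 0.846). For Cbx1 they were Eif5b, a translation initiation factor (r = 0.850), Etaa1 (r = 0.838) and Pagr1a (r = 0.836). Cbx3 had lower values, with Kif1a (r = 0.710), B3gnt7 (0.708) and Sesn3 (0.658). All were chosen as the highest among the genes tested, with predicted genes and clone names left out, and carry no test.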

How the data were processed

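The deposited intensity values are linear and had been scaled by the authors, since the mean after trimming 2% at each end is 500 on all 38 arrays. The sources used here do not name the software. The log2 values were computed from the deposited ones as log2(intensity + 46.1), with the 25th percentile of all values as pseudocount, and arrays were shifted to 1 median (array medians 129.2 to 208.3). Of 45101 probe sets, 34958 carry 1 gene symbol, 932 several and 9160 none in the platform annotation used. After the filter 29004 were tested, for 13333 genes. One linear model of 6 group means was fitted with limma 3.58.1 in R 4.3.3, 2-sided, with 32 residual degrees of freedom. Folds understate changes of dim genes, and the number of arrays limits the precision. Whether the mice of a cohort came from separate infections is not stated, so p-values measure the spread between these mice.

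Correlations used Python 3.11.15 with 100000 permutations. Named genes were all members, the 3 genes with the highest r with each, and up to 4 called members of each of 12 lists with the largest change; other list members given with values were chosen after these were seen. The members and lists were chosen with earlier results of these data known. Alternatives covered scaling, pseudocount (10 and 100), filter, probe set rule, array weights, array set and each array left out; leaving out the 5 arrays with bright hybridisation controls, leaving out probe sets ending in _s_at or _x_at, and the actin covariate were added after seeing the data.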

Additional observations from a re-analysis of the deposited data

Results flagged for a closer look

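The changes of 2 genes against normal differed between cohorts by the F test in limma, Myb with an adjusted p of 0.00373 and Hmgb3 with 0.0358. For Myb, MLL-AF10 exceeded MLL-GAS7 by 0.66, and MLL-GAS7 minus MLL-AF9 was -0.90 and MLL-GAS7 minus MLL-ENL -0.95. In tests of 36 groups of mice for a sample far from the rest, of which chance picks about 1 in 20, 2 stood out. They were MLL-AF9_307, whose Myb level of 13.66 lay below the other 4 mice, and MLL-AF10_782A, whose Hmgb2 level of 13.85 on 1437313_x_at lay above the other mice of its cohort.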

How the results depend on the processing

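Over 14 alternatives and 38 fits that left out 1 array, Myb (0.77 to 1.06 and 13 of 13 called in the former, where 1 setting left Myb no probe set) and Hmgb3 (-1.79 to -1.21, 14 of 14 called) kept their direction and call against normal. No paired analysis was possible because the groups share no replicate numbers in the labels. Arrays give no counts, and small changes of dim probe sets such as that of Cbx3 are the least precise.

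With the mean of kept probe sets Hmgb2 changed by -0.19 over all cohorts (limma adjusted p = 0.196). By cohort it changed by -0.12 in AF1p, -0.27 in AF10, -0.32 in GAS7, -0.26 in AF9 and 0.04 in ENL, none called. Without _s_at and _x_at probe sets the change was -0.48 over all cohorts, called. In the same order of cohorts it was -0.49, -0.65, -0.59, -0.37 and -0.29, with AF9 and ENL not called. Without _s_at, _x_at and _a_at probe sets it was -0.55 over all cohorts, called. By cohort it was then -0.37, -0.61, -0.75, -0.78 and -0.24, with AF1p and ENL not called. These settings replace the probe set that stood for the gene.

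Uncalled changes near 0 turned sign: 1421933_at as deposited (-0.058), Cbx1 with array weights (0.0020) and with the actin covariate (0.11), and Cbx5 with that covariate (0.053). For 1421934_at, 1436266_x_at and 1450416_at the values were 0.024, 0.00080 and 0.022 with array weights, 0.22, 0.084 and 0.24 with actin, and 0.044, 0.014 and 0.026 in a fit that added a term for array set. In the second array set alone 1421934_at gave 0.022 and 1436266_x_at 0.015. Leaving out 1 array gave -0.15 to 0.052 for Cbx1, -0.037 to 0.29 for 1421933_at, -0.19 to 0.13 for 1421934_at, -0.15 to 0.052 for 1436266_x_at and -0.25 to 0.12 for 1450416_at, with normal samples at the ends. The differences of single cohorts from normal for the HP1 genes were refitted under 52 settings, 38 of which left out 1 array. Of the 780 values this gave, 4 were called, all lower. They repeat the same genes and cohorts on overlapping arrays and are not separate tests. In the main fit the share of all genes called against normal ran from 27.1% in MLL-GAS7 to 41.4% in MLL-ENL.

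The count of all genes called among cohorts (1078) became 2031 with array weights and 267 in the second array set. Members called by that F test (2) were 1 in that set, 0 without the 5 arrays with bright hybridisation controls and 1 with the actin covariate. Called pairs of cohorts (3) were 5 as deposited and with array weights and 0 without the 5 arrays. Member probe sets called (8) were 2 without _s_at, _x_at and _a_at probe sets and 5 without _s_at and _x_at ones. Correlated pairs (4) were 0 as deposited, after quantile normalization, without _s_at, _x_at and _a_at probe sets, in the second array set and without the 5 arrays, 1 with pseudocount 100 and 7 without _s_at and _x_at probe sets. The share of called genes that were higher (69.4%) was 56.95% as deposited and 60.48% after quantile normalization. With the filter at 10 arrays, which a gene bright only in the 4 normal samples cannot pass, 5 erythroid, 5 B cell and 2 T and NK cell markers were called lower. Hmgb2 in MLL-AF9 was called with array weights (0.41, adjusted p = 0.0423 by limma). The cause of the other shifts was not tested.

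Leaving out each array in turn gave 4479 to 5888 genes called against normal, 2 to 3 members against normal, 9 to 13 of the 30 single cohort differences, 1 to 2 members among cohorts, 1 to 4 pairs of cohorts, 6 to 8 probe sets and 1 to 5 correlated pairs. The Hmgb2 calls in MLL-AF10 were lost without MLL-AF10_782A (adjusted p = 0.0564 by limma), and those in MLL-AF1p and MLL-AF10 without normal 4 (0.0533 and 0.0864) or normal 1 (0.187 and 0.274).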
